A study of Homo sapiens with 4 samples.

Results

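The 1391 γH2AX peaks described here lie on human chromosomes 4, 13 and 18, more than 1 Mb from a chromosome end and more than 3 Mb from the centromere, out of 35838 peaks in 2 deposited peak lists. They were chosen by position, on chromosomes selected on peak numbers, and comprise 995 of the 27296 peaks of lipid-overloaded HepG2 cells and 396 of the 8542 peaks of mock-treated HepG2 cells. The centromeres were placed at 50, 17.7 and 18.5 Mb of the 3 chromosomes (build hg38). The stretch that remains is called the zone here. It spans 347 Mb, without the short arm of chromosome 13, and holds 1270 protein-coding genes. The measured value behind that selection was the low number of peaks per Mb in these lists. Peak density, peaks per gene and the shares of marked genes and promoters, set against the rest of the genome, are therefore descriptions and carry no test.

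The limits of the zone left out 239 lipid-overload and 96 mock peaks of the same chromosomes. At the short-arm end of chromosome 4 the outermost 1 Mb held 31 lipid-overload and 8 mock peaks, and the first 1 Mb inside the zone held 31 and 9. At the long-arm end of chromosome 13 the outermost 1 Mb held 68 lipid-overload and 25 mock peaks, and the first 1 Mb inside held 31 and 7. Within 3 Mb of the centromere of chromosome 4, both sides together, there were 51 lipid-overload and 25 mock peaks. The adjoining 3 Mb inside the zone, a shorter stretch on each arm, held 2 and 1 on the short arm and 3 and 2 on the long arm. At the centromere of chromosome 18 the order turned, with 5 lipid-overload and 1 mock peaks within 3 Mb, both sides together. The adjoining 3 Mb, again shorter stretches, held 30 and 9 on the short arm and 25 and 3 on the long arm.

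H2AX is a histone variant that kinases of the DNA damage response phosphorylate in the chromatin around double-strand breaks, and the phosphorylated form, γH2AX, serves as a marker of such breaks. Chromosomes 4, 13 and 18 are among the human chromosomes with fewest genes per length. Much of their DNA is rich in A and T, replicates late in S phase and lies near the edge of the nucleus, and their genes sit in islands between long gene deserts.

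The series mapped γH2AX in HepG2 cells, a line from a human liver tumour, by CUT&Tag, a method in which an antibody on chromatin tethers a transposase that cuts and tags nearby DNA for sequencing. Of its 4 samples, 1 was lipid-overloaded cells with the γH2AX antibody (titled PAOA) and 1 was mock-treated cells with the same antibody (titled DMSO). The other two, with control IgG under either treatment, were not analysed here. The values below therefore have no IgG background beside them. Both γH2AX samples were the same cell line grown in the same serum-containing medium, with 100000 cells per assay and 14 PCR cycles, per the labels; lipid dose and time are not given there.

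With 1 library per condition, no difference between the conditions has a replicate check and none is tested. Each range in parentheses is an exact 95% interval that covers counting error only, and a PCR copy is not an independent molecule. The number of fragments over a peak's summit was recovered from the authors' fold and p values. On the 3 chromosomes it had a median of 7 in the lipid-overload list and 4 in the mock list, against 9 and 5 on the other chromosomes. Peaks with 5 or fewer fragments made up 31.1% of the lipid-overload and 77.8% of the mock peaks there, against 18.8% and 56.5% elsewhere. The lipid-overload library was 2.62 times as deep as the mock library, so peak numbers expected at the mock depth are given beside the main comparisons.

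Promoter sequences show what DNA the marked and unmarked genes of these chromosomes begin with. RefSeq windows of 300 bases, from 250 before to 50 after a gene's start, are given for 8 genes, chosen after their values had been seen. SEH1L and TPT1 had a peak over this window in both lists. PPAT, for purine synthesis, ACSL1, which activates long-chain fatty acids, HADH, an enzyme of mitochondrial β-oxidation, and CCNA2, cyclin A, had one in the lipid-overload list only. ALB and AFP, the genes of the main plasma proteins of adult and fetal liver, had one in neither. Capitals mark GGGCGG on either strand in the first 6 sequences, CCAAT on either strand in ALB and TATAAA in AFP. All sequences run 5′ to 3′ along the gene's own strand and are RefSeq's (GRCh38.p14, the assembly also called hg38). The windows lie at chr18:12947761-12948060 on the plus strand (SEH1L), chr13:45341134-45341433 on the minus strand (TPT1) and, on chromosome 4, chr4:56435566-56435865 (PPAT), chr4:184825919-184826218 (ACSL1) and chr4:121823834-121824133 (CCNA2) on the minus strand and chr4:107989639-107989938 (HADH), chr4:73404037-73404336 (ALB) and chr4:73435971-73436270 (AFP) on the plus strand.
SEH1L: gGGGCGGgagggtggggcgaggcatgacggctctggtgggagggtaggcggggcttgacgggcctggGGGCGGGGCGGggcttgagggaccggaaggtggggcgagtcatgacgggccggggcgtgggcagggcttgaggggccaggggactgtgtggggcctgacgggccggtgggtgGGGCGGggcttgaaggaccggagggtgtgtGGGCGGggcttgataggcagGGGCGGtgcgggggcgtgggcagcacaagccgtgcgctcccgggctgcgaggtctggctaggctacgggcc
TPT1: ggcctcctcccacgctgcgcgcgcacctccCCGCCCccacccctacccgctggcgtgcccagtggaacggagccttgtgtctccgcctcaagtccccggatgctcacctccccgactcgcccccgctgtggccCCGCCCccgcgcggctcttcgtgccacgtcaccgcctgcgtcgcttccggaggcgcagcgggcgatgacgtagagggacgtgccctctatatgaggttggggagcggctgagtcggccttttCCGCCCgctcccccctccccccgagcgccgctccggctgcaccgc
PPAT: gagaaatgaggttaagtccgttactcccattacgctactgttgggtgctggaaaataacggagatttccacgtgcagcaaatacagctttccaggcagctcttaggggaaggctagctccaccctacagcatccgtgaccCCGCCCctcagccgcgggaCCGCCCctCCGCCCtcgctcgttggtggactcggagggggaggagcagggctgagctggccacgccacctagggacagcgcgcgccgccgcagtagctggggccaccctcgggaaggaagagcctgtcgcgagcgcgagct
ACSL1: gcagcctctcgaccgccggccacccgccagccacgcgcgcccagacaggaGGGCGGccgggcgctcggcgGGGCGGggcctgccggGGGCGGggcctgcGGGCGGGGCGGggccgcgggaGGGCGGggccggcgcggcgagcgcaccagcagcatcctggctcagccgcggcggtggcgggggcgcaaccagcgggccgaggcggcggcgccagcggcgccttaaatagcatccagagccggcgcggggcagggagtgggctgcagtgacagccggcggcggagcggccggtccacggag
HADH: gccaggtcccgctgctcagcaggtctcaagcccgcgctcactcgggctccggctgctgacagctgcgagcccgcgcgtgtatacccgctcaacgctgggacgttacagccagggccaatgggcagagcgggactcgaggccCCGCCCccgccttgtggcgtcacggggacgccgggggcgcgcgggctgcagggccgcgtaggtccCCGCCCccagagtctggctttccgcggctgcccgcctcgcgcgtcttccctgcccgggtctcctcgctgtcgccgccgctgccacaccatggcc
CCNA2: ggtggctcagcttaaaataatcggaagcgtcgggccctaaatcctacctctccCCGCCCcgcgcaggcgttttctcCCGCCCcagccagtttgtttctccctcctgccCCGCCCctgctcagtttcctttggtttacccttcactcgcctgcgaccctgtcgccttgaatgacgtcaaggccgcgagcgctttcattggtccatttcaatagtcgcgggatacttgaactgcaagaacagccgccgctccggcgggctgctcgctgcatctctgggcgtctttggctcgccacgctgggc
ALB: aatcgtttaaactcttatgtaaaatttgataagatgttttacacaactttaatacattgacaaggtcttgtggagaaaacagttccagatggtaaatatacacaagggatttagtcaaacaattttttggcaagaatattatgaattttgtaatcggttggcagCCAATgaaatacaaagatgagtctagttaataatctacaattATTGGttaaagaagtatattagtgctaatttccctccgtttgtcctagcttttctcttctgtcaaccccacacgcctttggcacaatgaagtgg
AFP: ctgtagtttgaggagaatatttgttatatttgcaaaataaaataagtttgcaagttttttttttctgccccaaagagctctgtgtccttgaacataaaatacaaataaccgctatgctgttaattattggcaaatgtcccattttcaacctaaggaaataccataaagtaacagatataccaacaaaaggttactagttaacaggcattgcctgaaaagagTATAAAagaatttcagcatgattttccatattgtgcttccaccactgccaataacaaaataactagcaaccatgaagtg
The windows of the 6 marked genes held between 61.0% (CCNA2) and 82.3% (ACSL1) G+C and between 2 and 6 copies of GGGCGG, a box that Sp1-type factors bind. Those of ALB and AFP held 33.3% and 33.0% G+C, with 4 and 1 CpG dinucleotides against at least 24 in each marked window. The lipid-overload peaks over SEH1L, TPT1 and PPAT covered all 300 bases, with 68, 37 and 22 fragments. Those over HADH, ACSL1 and CCNA2 covered 155, 113 and 107 bases, with 10, 5 and 5 fragments. The mock peaks over SEH1L and TPT1 covered 300 and 60 bases, with 11 and 8 fragments.

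The 3 chromosomes carried few γH2AX peaks for their length in both conditions. Lipid-overload peaks numbered 2.87 per Mb (2.69 to 3.05) on chromosomes 4, 13 and 18, against 9.85 per Mb (9.73 to 9.98) on the other chromosomes. Mock peaks numbered 1.14 per Mb (1.03 to 1.26) on them and 3.02 (2.96 to 3.09) elsewhere. The density was thus 0.291 times that of the other chromosomes after lipid overload (0.273 to 0.310) and 0.377 times under mock treatment (0.340 to 0.417). Both ratios lay below 1 under every alternative run, but their order did not hold: with a −log10 q of at least 5 they were 0.285 and 0.237, and with a fold of at least 5 they were 0.304 and 0.27. Coding genes numbered 3.66 per Mb against 7.22, a ratio of 0.507, which is closer to 1 than either peak ratio. By this measure chromosomes 13, 18 and 4 were the lowest of 23. Against the gene-rich chromosomes 17, 19 and 22, which held 23.3 lipid-overload and 6.20 mock peaks per Mb, the ratios were 0.123 (0.115 to 0.132) and 0.184 (0.163 to 0.207). The local background around the peaks was also lower on chromosomes 4, 13 and 18 than on the other chromosomes. Its median was 0.461 against 0.734 lipid-overload fragments and 0.164 against 0.280 mock fragments, and its part in the density difference was not tested.

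The 3 chromosomes were not alike. Chromosome 4 held 387 lipid-overload and 149 mock peaks, or 2.12 (1.92 to 2.35) and 0.818 (0.692 to 0.960) per Mb, although it had the most genes per Mb of the 3 chromosomes, at 3.92. Chromosome 13 held 320 and 142 peaks, or 3.45 (3.09 to 3.85) and 1.53 (1.29 to 1.81) per Mb, with 3.34 genes per Mb. Chromosome 18 held 288 and 105 peaks, or 3.98 (3.53 to 4.47) and 1.45 (1.19 to 1.76) per Mb, with 3.40 genes per Mb. Chromosomes 18 and 13 did not differ beyond counting error in either list, with ratios of 1.15 (0.979 to 1.36) and 0.947 (0.729 to 1.23). Chromosome 4 lay below both, at 0.615 times chromosome 13 (0.529 to 0.715) and 0.534 times chromosome 18 (0.457 to 0.624) after lipid overload. Under mock treatment these ratios were 0.534 (0.421 to 0.676) and 0.564 (0.436 to 0.731). Of 23 chromosomes, chromosome 4 had the lowest lipid-overload density and, after X, the lowest mock density.

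**Figure D1:**
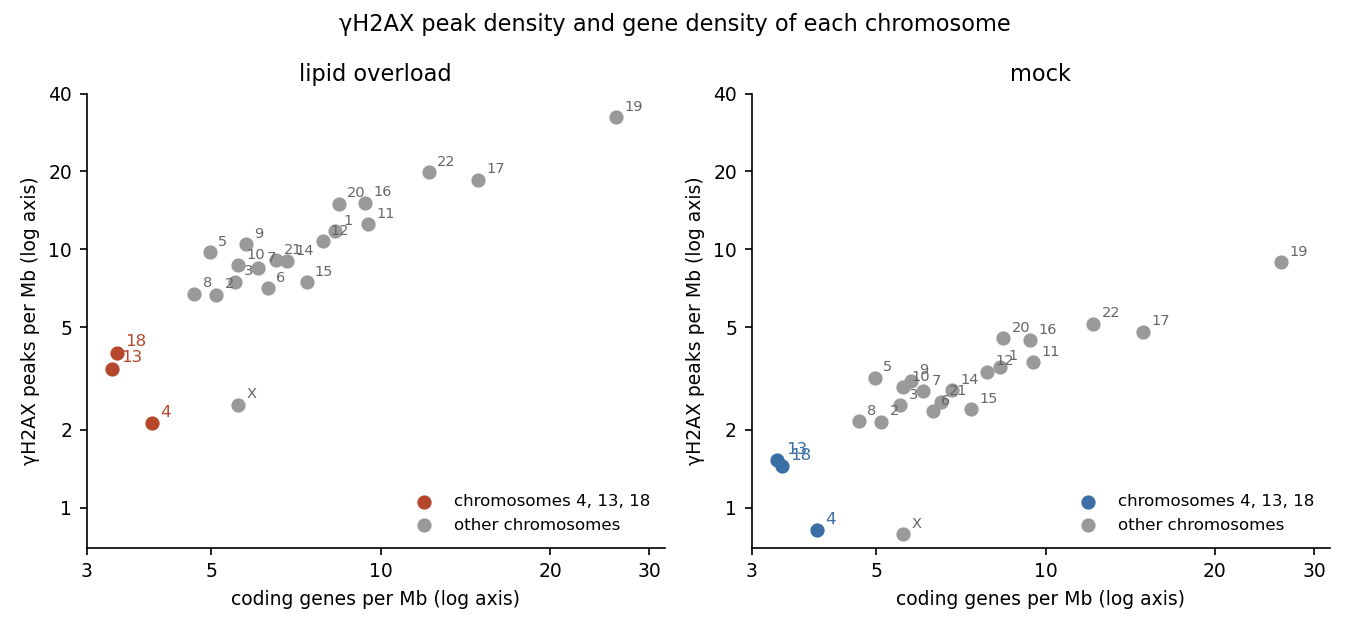
Each point is a chromosome (1 to 22 and X), with coding genes per Mb on the horizontal and γH2AX peaks per Mb on the vertical log axis, for the lipid-overload list (left) and the mock list (right); chromosomes 4, 13 and 18 are coloured. Chromosomes 13 and 18 sit at the low end of the band that the other chromosomes form, whereas chromosome 4, with 2.12 and 0.818 peaks per Mb, lies below it beside X.

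Peaks were also fewer per coding gene on the 3 chromosomes than on the others taken as a whole, and chromosome 4 was the lowest of the 3. The 3 chromosomes held 0.783 lipid-overload and 0.312 mock peaks per coding gene, against 1.37 and 0.419 on the other chromosomes. These ratios were 0.574 (0.538 to 0.612) and 0.744 (0.671 to 0.823). Chromosome 4 had 0.541 lipid-overload (0.489 to 0.598) and 0.208 mock peaks (0.176 to 0.245) per gene. It stood at 0.397 (0.358 to 0.438) and 0.497 (0.420 to 0.585) times the other chromosomes. Chromosomes 13 and 18 had 1.04 and 1.17 lipid-overload peaks per gene, 0.759 (0.677 to 0.847) and 0.858 (0.761 to 0.963) times the other chromosomes. In the mock list their values of 0.460 and 0.427 per gene did not differ from the other chromosomes beyond counting error, with ratios of 1.10 (0.922 to 1.29) and 1.019 (0.832 to 1.24). Low values per gene were also found elsewhere: in the lipid-overload list X had 0.449, chromosome 15 had 1.01 and chromosome 6 had 1.12 peaks per gene.

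Peaks were bunched in a few stretches of each chromosome. In 70 windows of about 5 Mb, the number of lipid-overload peaks ran from 0 to 88, with a median of 9, and that of mock peaks from 0 to 24, with a median of 4. The densest by number was chr4:1000001-6000000 near the tip of 4p, with 88 lipid-overload and 24 mock peaks and 56 coding genes. Next came chr18:11000001-15499999 on the short arm beside the centromere, with 60 and 22 peaks and 25 genes, and chr13:110700001-113364327 near the tip of 13q, with 58 and 22 peaks and 19 genes. Per Mb the last was the highest, at 21.8 lipid-overload and 8.26 mock peaks. The same windows were dense in both lists: Spearman's rho between lipid-overload and mock numbers was 0.829 over the 70 windows, which share 2 libraries and are no replicates.

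At the other extreme, 4 windows had no lipid-overload peak. The window chr4:31000001-36000000 holds no coding gene and had 2 mock peaks. Those at chr4:113000001-118000000, chr4:133000001-138000000 and chr13:60700001-65700000 hold 6, 3 and 3 genes and had 2, 0 and 1 mock peaks. Across the windows, peak number followed gene number with a Spearman's rho of 0.692 in the lipid-overload and 0.533 in the mock list (Pearson's r 0.593 and 0.512). Some gene-rich windows, picked after their values were seen, had few peaks: chr4:68000001-73000000 and chr4:73000001-78000000 hold 43 and 49 coding genes, nearly as many as the tip of 4p, and had 4 and 12 lipid-overload and 6 and 4 mock peaks.

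**Figure D2:**
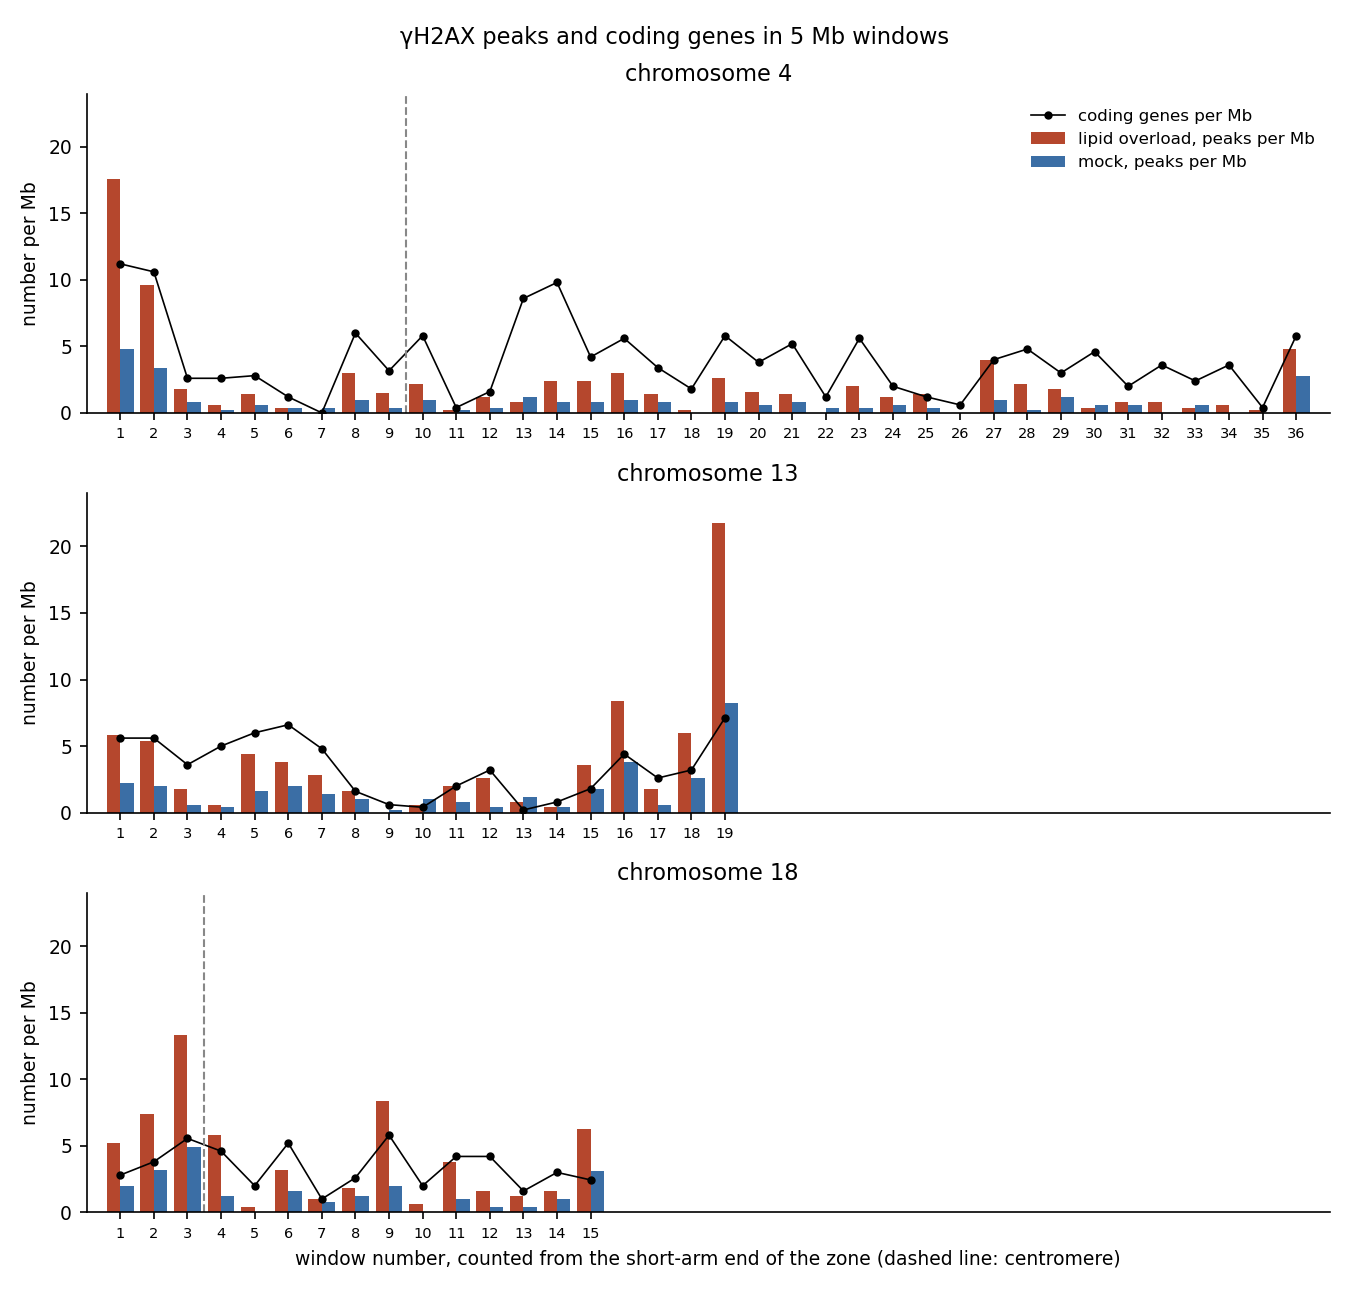
Bars give lipid-overload and mock peaks per Mb and the line gives coding genes per Mb in consecutive windows of about 5 Mb (2.66 to 6.21 Mb where a window ends at a limit of the zone), counted from the short-arm end of the zone on chromosomes 4, 13 and 18. Peaks are bunched at the tip of 4p (17.6 lipid-overload and 4.8 mock peaks per Mb in the first window), at the end of 13q (21.8 and 8.26) and on 18p beside the centromere (13.3 and 4.89).

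The arms differed. On 4p there were 3.93 lipid-overload (3.38 to 4.55) and 1.3 mock peaks per Mb (0.995 to 1.68), against 1.51 (1.31 to 1.73) and 0.653 (0.525 to 0.804) on 4q, with 4.43 and 3.75 genes per Mb. On 18p there were 8.48 lipid-overload (7.05 to 10.1) and 3.31 mock peaks per Mb (2.44 to 4.39), against 2.85 (2.43 to 3.32) and 0.985 (0.746 to 1.28) on 18q, with 4 and 3.25 genes per Mb. Per coding gene, 18p held 2.12 lipid-overload and 0.828 mock peaks, which is above the 1.37 and 0.419 of the other chromosomes. The local background around the peaks was also higher on the denser arms, with a median of 0.685 lipid-overload fragments on 4p and 0.392 on 4q, and 0.591 on 18p and 0.423 on 18q. Its part in the difference was not tested.

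Stretches between 1 and 10 Mb from a chromosome end made up 12.96% of the zone and held 33.6% of the lipid-overload and 33.1% of the mock peaks. On the other chromosomes such stretches made up 13.3% and held 25.4% and 23.8%. On chromosome 4 their density was 9 lipid-overload peaks per Mb (7.67 to 10.5), against 1.37 (1.20 to 1.56) farther in, and on chromosome 13 it was 9.78 (7.84 to 12.05) against 2.77 (2.43 to 3.15). In the mock list the pairs were 3.22 against 0.554 and 3.89 against 1.28. On chromosome 18 the contrast was smaller, with 4.67 (3.72 to 5.78) against 3.75 (3.25 to 4.30) lipid-overload peaks, whose intervals overlap, and 2.11 against 1.23 mock peaks per Mb. Genes were also denser toward the ends of chromosome 4, at 8 per Mb against 3.48, less so on chromosome 13, at 4 against 3.26, and sparser toward the ends of chromosome 18, at 2.83 against 3.59.

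Long stretches held no peak of either list. Stretches of over 2 Mb without one numbered 36 and covered 125 Mb, 36.0% of the zone: 45.1% of chromosome 4, 25.1% of chromosome 13 and 27.3% of chromosome 18. The longest, of 8.98 Mb at chr4:173843800-182819637, contains 14 whole coding genes, among them VEGFC, a growth factor of lymphatic vessels, NEIL3, a DNA glycosylase, and TENM3, a neuronal adhesion protein. The next, of 8.02 Mb at chr4:27018027-35038069, contains 2, one of them the protocadherin gene PCDH7. The third, of 7.24 Mb at chr18:37538305-44779154, contains 4, among them PIK3C3, a lipid kinase of autophagy, and the synaptotagmin gene SYT4. A stretch of 4.99 Mb, named after its genes were seen, at chr4:153466512-158459783 holds 22 genes, including FGA, FGB and FGG, which encode the chains of fibrinogen, and TDO2, a tryptophan-degrading enzyme of liver.

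Where coding genes were absent, the lists did not differ in peak number beyond counting error. The 78 windows of about 1 Mb with no coding gene in them held 27 lipid-overload and 28 mock peaks, or 0.346 (0.228 to 0.504) and 0.359 (0.239 to 0.519) per Mb. Windows with 1 to 3 genes held 1.27 and 0.630 peaks per Mb, those with 4 to 8 held 4.58 and 1.71, and those with 9 to 15 held 8.89 (7.79 to 10.1) and 3.0 (2.38 to 3.73). Each step up in gene number had more peaks in both lists up to that class, and the 4 windows with 16 or more genes, all on chromosome 4, held 9.50 (6.72 to 13.04) and 2.50 (1.20 to 4.60). In every class the other chromosomes had more: 1.34 and 0.708 peaks per Mb with no gene, and 16.02 and 4.80 with 9 to 15 genes.

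Peaks of the 3 chromosomes gathered at the ends of coding genes, within 1 kb of either end. In the lipid-overload list 366 of the 995 peaks (36.8%) lay there, against 1.52% of the positions that a peak of median width could take in the zone, which is 24.3 times as many as an even spread gives. In the mock list 88 of 396 peaks (22.2%) did, or 14.7 times as many. Among stronger peaks both shares were higher: with a −log10 q of at least 5 the shares were 51.5% (46.3 to 56.6) and 46.2% (30.1 to 62.8), whose intervals overlap, and with a fold of at least 5 they were 49.5% (45.3 to 53.8) and 35.5% (26.6 to 45.1). Peaks inside coding genes away from the ends made up 35.5% of the lipid-overload and 38.9% of the mock peaks, close to the 35.7% of positions there. Genes without protein product alone accounted for 7.04% and 8.59% of the peaks and 15.4% of positions. Outside any gene lay 20.7% of the lipid-overload and 30.3% of the mock peaks, against 47.4% of positions; with a −log10 q of at least 5 these shares were 15.4% and 17.9%, and with a fold of at least 5 they were 15.7% and 17.3%, with overlapping intervals.

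Set against the other chromosomes, the share at gene ends was higher in the lipid-overload list, at 36.8% (33.8 to 39.9) against 31.9% (31.3 to 32.5), and lower in the mock list, at 22.2% (18.2 to 26.6) against 28.0% (27.0 to 29.1). By fragment number, the mock shares were 16.6% on the 3 chromosomes against 17.7% on the others with 5 or fewer fragments. They were 45.1% against 39.8% with 6 to 9, and 26.7% (4 of 15) against 46.7% with 10 to 19. After lipid overload, chromosomes 13 and 18 by themselves had 32.8% (27.7 to 38.3) and 31.25% (25.9 to 36.95), whose intervals overlap that of the other chromosomes. On X, 190 of 371 lipid-overload peaks lay at gene ends. The higher share was mainly that of chromosome 4, where 171 of 387 peaks (44.2%, 39.2 to 49.3) lay at gene ends and 58 (14.99%) outside any gene. Its peaks away from gene ends numbered 1.19 per Mb, against 6.71 per Mb on the other chromosomes, a ratio of 0.177 (0.154 to 0.202). Its gene-end peaks numbered 0.938 per Mb against 3.14 per Mb, and per coding gene 0.239 against 0.435, a ratio of 0.550 (0.470 to 0.640).

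**Figure D3:**
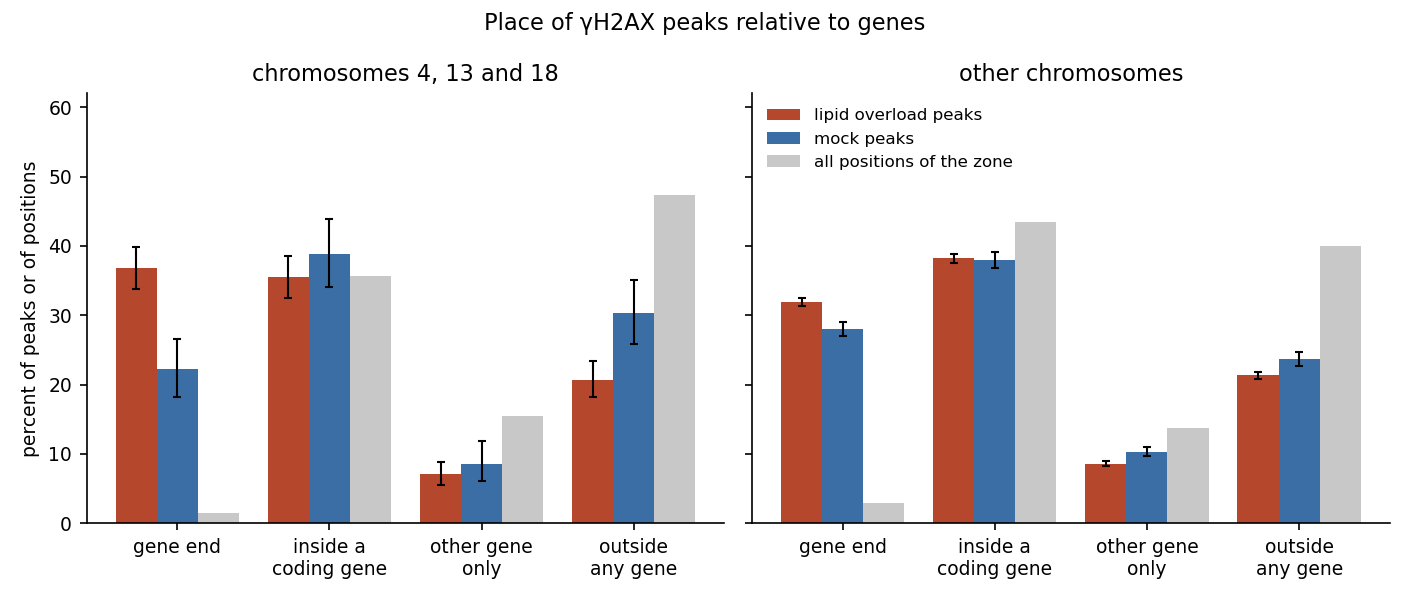
Bars show the percent of lipid-overload peaks, of mock peaks and of all positions of the zone at gene ends, inside coding genes, in other genes only and outside any gene, on chromosomes 4, 13 and 18 (left) and on the other chromosomes (right); whiskers are exact 95% binomial intervals. On the 3 chromosomes 36.8% of lipid-overload and 22.2% of mock peaks lie at gene ends, which make up 1.52% of positions, whereas at each of the other places the lipid-overload share is below the mock share, with 20.7% and 30.3% outside any gene.

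Lipid-overload peaks outnumbered mock peaks by 2.51 to 1 on the 3 chromosomes (2.23 to 2.83), against 3.26 (3.17 to 3.34) on the other chromosomes and 3.76 (3.50 to 4.03) on chromosomes 17, 19 and 22. That the excess was smaller on the 3 chromosomes did not hold under both stricter thresholds, where the order of the density ratios turned as given above. In the lists as deposited the excess depended on the place. At gene ends it was 4.16 (3.29 to 5.31), from 366 against 88 peaks, and inside coding genes 2.29 (1.89 to 2.79), from 353 against 154. Outside any gene it was 1.72 (1.36 to 2.17), from 206 against 120, where the other chromosomes had 2.94 (2.78 to 3.10). There chromosomes 4, 13 and 18 had 1.45 (0.953 to 2.23), 1.39 (0.958 to 2.04) and 2.66 (1.71 to 4.22). With a −log10 q of at least 5 the shares of the lists at gene ends and outside any gene had overlapping intervals, as given above. At the mock depth, 461 lipid-overload peaks were expected to remain, 1.16 times the mock number, against 1.53 times on the other chromosomes. By place, the expected ratio was 2.33 at gene ends, 0.963 inside coding genes and 0.679 outside any gene, against 2.25, 1.31 and 1.18 on the other chromosomes. Outside any gene the expected ratio was 0.567 on chromosome 4, 0.491 on chromosome 13 and 1.16 on chromosome 18. The expected numbers count only peaks already in the lipid-overload list and add none that a library of mock depth might call anew. The mock list keeps all of its weak peaks, so a ratio below 1 is not read as a loss after lipid overload.

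Of the peaks as deposited, the larger part stood in 1 list only. An overlap of at least 1 bp with a mock peak was found for 124 lipid-overload peaks (12.5%, 10.5 to 14.7), against 14.3% of all lipid-overload peaks. The reverse was found for 123 mock peaks (31.1%, 26.5 to 35.9), against 45.8% of all mock peaks. Among stronger peaks this did not hold for the mock list: with a −log10 q of at least 5 in both lists the shared part was 8.22% of the lipid-overload list and 76.9% of the mock list, and with a fold of at least 5 it was 12.5% and 61.8%. As deposited, 871 lipid-overload and 273 mock peaks stood in 1 list only, against 85.7% and 54.2% over all peaks. Overlap rose with the number of fragments: 7 of the 309 lipid-overload peaks with 5 or fewer fragments overlapped a mock peak (2.27%), and 27 of the 46 with 20 or more (58.7%, 43.2 to 73.0). Of the 124 shared lipid-overload peaks, 61 lay at gene ends, and of the 273 mock-only peaks, 28 did (10.3%) and 103 lay outside any gene (37.7%).

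Counted by gene, 371 of the 1270 coding genes of the zone had a gene-end peak in the lipid-overload list (29.2%, 26.7 to 31.8), where 43.4% of all coding genes had one. In the mock list 97 had one (7.64%, 6.24 to 9.24), where 13.4% of all did. A peak in the lipid-overload list only was found at 294 genes (23.1%, all genes 31.4%), in both lists at 77 (6.06%, all genes 12.1%) and in the mock list only at 20 (1.57%, all genes 1.34%). On chromosome 4, 179 of 715 genes were marked after lipid overload (25.0%) and 40 under mock treatment (5.59%). On chromosome 13 the shares were 33.98% and 10.4% of 309 genes, and on chromosome 18 they were 35.4% and 10.2% of 246 genes.

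The lower share of the 3 chromosomes together was seen at matched local gene number too, which their selection on few peaks favours. Whether gene number has a part in the gap was not tested. Among genes with 0 to 3 other coding genes within 1 Mb, 14.95% were marked after lipid overload on the 3 chromosomes (8.80 to 23.1), against 21.3% on the others (17.7 to 25.3), and these intervals overlap. With 4 to 8 neighbours the shares were 24.6% (20.0 to 29.7) against 38.1% (35.9 to 40.3). With 9 to 15 they were 34.1% (30.1 to 38.3) against 43.2% (41.6 to 44.8), and with 16 or more 30.6% (25.6 to 36.1) against 46.7% (45.7 to 47.6). Pooled mock shares ran the same way, for example 4.92% (2.84 to 7.87) against 11.5% (10.1 to 13.1) with 4 to 8 neighbours. After lipid overload the gap was widest on chromosome 4. With 16 or more neighbours, 27.2% (21.9 to 33.1) were marked there after lipid overload, against 43.2% (27.1 to 60.5) on chromosome 13 and 56.25% (29.9 to 80.2) on chromosome 18. In every class, of 16 to 164 genes, the lipid-overload intervals of chromosomes 13 and 18 overlapped those of the other chromosomes. Over all classes they did not overlap: 33.98% (28.7 to 39.6) and 35.4% (29.4 to 41.7) against 44.3% (43.6 to 45.1). With 16 or more neighbours the mock shares of chromosomes 13 and 18, 16.2% and 31.25%, lay above the 14.2% of the others.

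**Figure D4:**
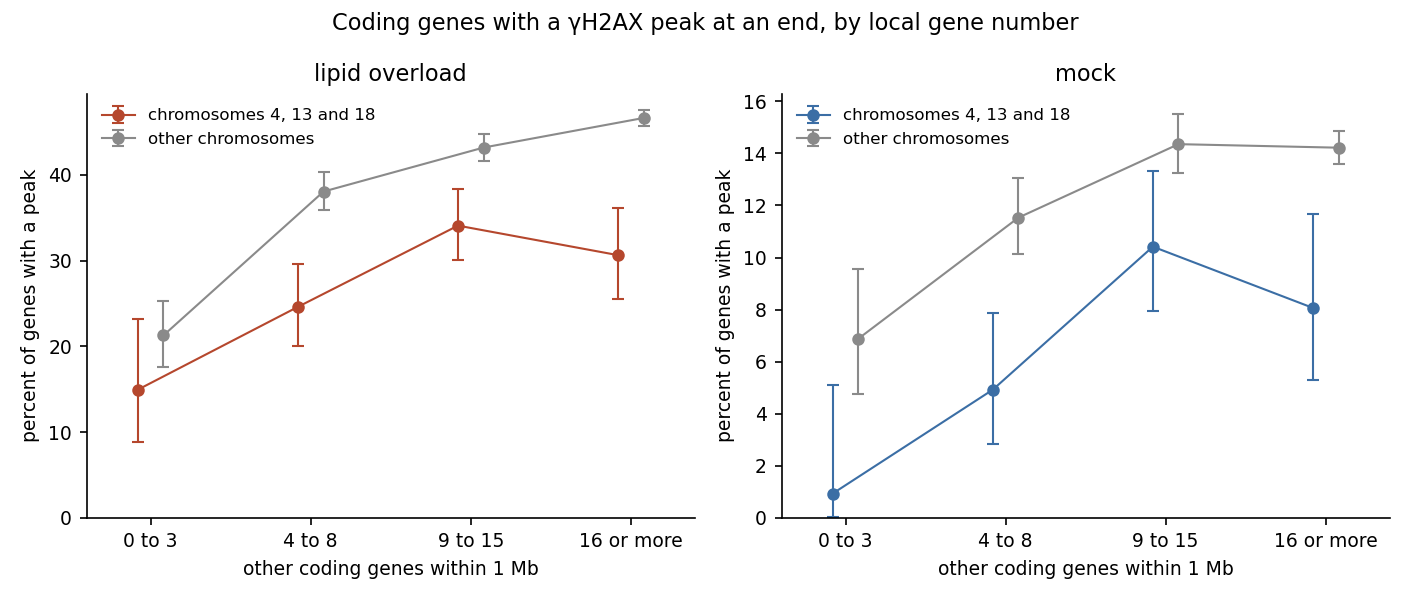
Points give the percent of coding genes with a γH2AX peak within 1 kb of an end, by the number of other coding genes within 1 Mb, for chromosomes 4, 13 and 18 and for the other chromosomes, in the lipid-overload list (left) and the mock list (right); whiskers are exact 95% binomial intervals and the vertical scales differ. The 3 chromosomes together lie below the others in each class, with 30.6% against 46.7% after lipid overload and 8.06% against 14.2% under mock treatment in the class of 16 or more neighbours. Their selection on few peaks favours this.

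Gene-end peaks lay mostly at gene starts. Of the 1025 genes of at least 4 kb whose strand the promoter table gives, 311 had a lipid-overload peak at the 5′ end (30.3%, 27.5 to 33.3) and 6 at the 3′ end (0.585%). In the mock list 78 had one at the 5′ end (7.61%) and 5 at the 3′ end (0.488%). On the other chromosomes the lipid-overload shares were 46.0% and 5.58%. By length, genes of over 300 kb were marked at an end least often, 13 of 94 after lipid overload (13.8%) and 3 under mock treatment (3.19%), against 151 of 423 genes of 30 to 100 kb (35.7%) and 38 (8.98%). Genes of 100 to 300 kb had 82 of 266 marked after lipid overload (30.8%) and 25 under mock treatment (9.4%).

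Long genes also held few peaks for their length in their interior. In genes of over 300 kb there were 1.53 internal lipid-overload peaks per Mb (1.22 to 1.90) and 0.812 mock peaks per Mb (0.588 to 1.09), against 3.64 and 1.496 in such genes of the other chromosomes. Among the genes with most lipid-overload peaks, MCF2L, a gene of 205 kb at the end of 13q, had 10 lipid-overload and 4 mock peaks. CTIF, which encodes a translation factor, DLGAP1, a postsynaptic scaffold gene, RGS12, a regulator of G protein signalling, and SORCS2, a sorting receptor gene, had 7 lipid-overload peaks each and 1, 3, 0 and 2 mock peaks. Per 100 kb of gene this is 4.87 lipid-overload peaks in MCF2L and 4.54 in RGS12 but 0.730 in DLGAP1, which is 959 kb long.

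The 10 gene-end peaks of highest significance among those found only after lipid overload had between 16 and 38 fragments. The highest, at chr4:2242152-2242468, had 38 fragments (26.9 to 52.2) and lies at the shared start of POLN, a translesion DNA polymerase, and HAUS3, a subunit of the augmin complex of the spindle. COPS4, a COP9 signalosome subunit, had 22 fragments (13.8 to 33.3), and TNIP2, an inhibitor of NF-κB signalling, had 24 (15.4 to 35.7). HSPH1, a chaperone of the Hsp110 family, and SPRYD7 had 19 each (11.4 to 29.7). PPAT, the amidotransferase that commits to purine synthesis, had 22 (13.8 to 33.3), at chr4:56435545-56435976, which covers the whole window printed above. LMAN1, a cargo receptor between endoplasmic reticulum and Golgi, and HMGB2, a chromatin protein that bends DNA, had 17 each (9.90 to 27.2). PDS5B, a cohesin regulator, and TMEM131L had 16 each (9.15 to 26.0).

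The 8 gene-end peaks of highest significance that had a mock partner held between 27 and 68 lipid-overload and between 7 and 25 mock fragments. SEH1L, a nucleoporin that also acts in amino acid sensing, had 68 lipid-overload fragments (52.8 to 86.2) and 11 mock fragments (5.49 to 19.7), at chr18:12947666-12948358. IMPA2, an inositol monophosphatase, had 65 (50.2 to 82.8) and 25 (16.2 to 36.9), the highest mock value of all these peaks. HTT, the huntingtin gene, had 44 (31.97 to 59.1) and 9 (4.12 to 17.1), and AFG3L2, a protease of the mitochondrial inner membrane, had 40 (28.6 to 54.5) and 10 (4.80 to 18.4). TPT1, a growth-related protein made in most cells, had 37 (26.1 to 51.0) and 8 (3.45 to 15.8), and CCDC110 had 37 and 9 (4.12 to 17.1). ANKRD10 had 32 lipid-overload and 7 mock fragments, and MTCL1, a microtubule crosslinking factor, had 27 and 8. These peaks were ranked by their significance in the lipid-overload list, which favours high lipid-overload numbers, so their ratios to the mock numbers are not read against the ratio of the depths.

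Peaks found only in the mock list were weak. The 5 of highest significance had 9 fragments at the end of SPON2, a secreted matrix protein (4.12 to 17.1), 8 in the uncharacterised gene ATP11AUN (3.45 to 15.8), and 7 each (2.81 to 14.4) in GALR1, a galanin receptor, in the noncoding genes DLEU2 and DLEU1, and in a stretch outside any gene at chr18:25033606-25033775. Of these, 1 lies at the end of a coding gene.

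Some of the strongest peaks lay away from the ends of coding genes. The highest of all 1391 had 84 lipid-overload fragments (67.0 to 104) at chr13:44141911-44142331, inside the noncoding genes LINC00390 and SMIM2-AS1, with no mock peak; it was named after its value was seen. Of the 5 of highest significance inside coding genes, ATP9B, a phospholipid transporter of the Golgi, had 58 lipid-overload (44.0 to 74.98) and 17 mock fragments (9.90 to 27.2), and CARS2, a mitochondrial cysteine tRNA ligase, had 44 (31.97 to 59.1) and 12 (6.20 to 21.0). DLGAP1 had 39 (27.7 to 53.3) and 10 (4.80 to 18.4). SORCS2 had 34 (23.5 to 47.5) and LOC124900165 had 28 (18.6 to 40.5), both without a mock peak.

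Outside any gene, 4 of the 5 lipid-overload peaks of highest significance had a mock partner. The peak at chr13:30870247-30870835, nearest to MEDAG, had 43 lipid-overload (31.1 to 57.9) and 11 mock fragments (5.49 to 19.7), and that at chr4:3955455-3956069, nearest to ADRA2C, an adrenergic receptor gene, had 28 (18.6 to 40.5) and 12 (6.20 to 21.0). At chr4:60423638-60423790, which is 775 kb from the nearest coding gene, there were 14 (7.65 to 23.5) and 10 (4.80 to 18.4). At chr18:4510726-4510978 the order turned, with 13 lipid-overload (6.92 to 22.2) and 20 mock fragments (12.2 to 30.9). At chr4:1777861-1778342, nearest to FGFR3, a fibroblast growth factor receptor gene, there were 29 lipid-overload fragments (19.4 to 41.7) and no mock peak. Peaks outside genes lay closer to a coding gene after lipid overload, at a median of 32.2 kb (quartiles 11.95 and 94.4), than under mock treatment, at 46.8 kb (quartiles 19.9 and 208). Of them, 13 of 206 lipid-overload (6.31%) and 20 of 120 mock peaks (16.7%) lay over 500 kb from any coding gene.

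The 7 gene lists compared here were drawn up with earlier results of these data known, and were set beside the 29.2% and 7.64% of all coding genes of the zone that had a gene-end peak after lipid overload and under mock treatment. Of 26 genes for plasma proteins and drug metabolism of liver, 1 was marked after lipid overload (3.85%) and none under mock treatment. It was CFI, complement factor I, with 6 fragments (2.20 to 13.1). ALB, AFP, the fibrinogen genes, the thyroxine carrier gene TTR and the UGT2B, ADH1 and ADH4 genes of the list had none, and within the genes there were 2 lipid-overload peaks, both in the clotting factor gene F10, and 1 mock peak, in UGT2B4. ADH5, an alcohol dehydrogenase gene of the same cluster that is not in the list and was picked after its value was seen, had a lipid-overload peak of 7 fragments (2.81 to 14.4) at an end. The UGT2B and ADH1 genes are near-identical copies, where short reads can map to more than 1 place, so their values are uncertain. Of 40 genes of other cell types, 1 was marked after lipid overload (2.50%), the GABA receptor gene GABRA4 with 5 fragments (1.62 to 11.7), and none under mock treatment. Peaks of γH2AX do not measure expression, so neither list checks the identity of the cells. In each list up to 4 marked genes are named by rank of significance, and the other members named were picked after their values were seen.

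Of 33 genes of lipid metabolism, 14 were marked after lipid overload (42.4%, 25.5 to 60.8) and 3 under mock treatment (9.09%, 1.92 to 24.3). Both intervals contain the shares of all coding genes of the zone. OSBPL1A, an oxysterol-binding protein, had 15 lipid-overload fragments (8.40 to 24.7), and LPIN2, a phosphatidate phosphatase, had 18 (10.7 to 28.4) and 6 mock fragments (2.20 to 13.1). PIGN, an enzyme of GPI anchor synthesis, had 11 (5.49 to 19.7) and HADH had 10 (4.80 to 18.4), both without a mock peak. ACSL1 and MTTP, which loads lipid onto apolipoprotein B, had 5 (1.62 to 11.7) and 4 (1.09 to 10.2), which are among the weakest peaks of the list. The fatty acid elongase gene ELOVL6, the desaturase gene SCD5 and GPAT3, for glycerolipid synthesis, had no peak at an end or within.

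Of 35 genes of DNA repair, replication and mitosis, 22 were marked after lipid overload (62.9%, 44.9 to 78.5) and 4 under mock treatment (11.4%, 3.20 to 26.7). Beside POLN, PDS5B and HMGB2, named above, CEP192, a centrosome protein, ranked highest, with 23 lipid-overload (14.6 to 34.5) and 6 mock fragments (2.20 to 13.1). BRCA2 and RB1 had 6 and 5 lipid-overload fragments, whereas LIG4, a ligase of end joining, and RFC1, of the clamp loader, had no peak. Of 34 genes active in every cell, 23 were marked after lipid overload (67.6%, 49.5 to 82.6), among them SEH1L, TPT1, AFG3L2 and PPAT. Under mock treatment 9 were (26.5%, 12.9 to 44.4). The ribosomal protein genes RPL34 and RPL17 had a mock peak only, with 4 (1.09 to 10.2) and 3 fragments (0.619 to 8.77).

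Of 28 genes of signal and transcription factors, 6 were marked after lipid overload (21.4%, 8.30 to 41.0) and 1 under mock treatment (3.57%, 0.0904 to 18.3). Both intervals contain the shares of all coding genes of the zone. AFF1, of the super elongation complex, had 19 lipid-overload (11.4 to 29.7) and 7 mock fragments (2.81 to 14.4). SMAD2, of TGF-β signalling, KLF3, a transcriptional repressor, and KLHL5 had 13, 10 and 9 lipid-overload fragments and no mock peak. The chemokine genes CXCL1, CXCL2, CXCL3 and CXCL8 had none. Of 29 very long genes and genes at fragile sites, with a median length of 749 kb, 2 were marked after lipid overload (6.90%), the phosphatase gene PTPRM with 8 fragments (3.45 to 15.8) and FNDC3A with 6, and none under mock treatment. Within them lay 40 lipid-overload and 21 mock peaks, in 13 and 12 of the genes. At the mock depth, 7.30 of the lipid metabolism genes, 13.6 of the repair and division genes, 15.8 of the genes active in every cell and 1.01 of the very long genes were expected to stay marked after lipid overload, beside 225 of all 1270 (17.7%).

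Marked promoters were rich in G and C. Of the 1270 coding genes, 1103 have a window in the RefSeq promoter table (GRCh38.p14), and a lipid-overload peak overlapped the window itself at 263 of them and a mock peak at 54. The median G+C of the marked windows was 68.0% after lipid overload and 69.0% under mock treatment, against 58.3% in the 759 windows of genes with a gene-end peak in neither list, called unmarked here. The sets overlap: 13 of these 759 windows (1.71%) had a lipid-overload peak over the window and are also among the 263. GGGCGG on either strand was in 81.0% and 88.9% of the marked windows, 46.6% of the unmarked and 58.1% of all 15090 promoters of coding genes in the table. CCGGAA, the core bound by ETS-type factors, was in 30.8% and 31.5% of the marked, 14.4% of the unmarked and 22.7% of all 15090. TATAAA, the core of the TATA box, was in 4.94%, 5.56%, 13.04% and 9.77% in the same order, and TGANTCA, the form bound by AP-1, in 3.42%, 5.56%, 8.30% and 5.78%. CCAAT differed little, at 36.5%, 38.9%, 33.99% and 36.5%. The palindromic form of the NRF1 motif was in 6 of the 263 lipid-overload windows (2.28%), none of the 54 mock windows and 1.77% of all. All 6 motifs were searched on both strands, a window counted once per motif, and matches of different motifs may overlap. A match describes letters and is no sign of binding.

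The share of marked promoters moved with base composition. At like composition the 3 chromosomes together lay below the others, which their selection on few peaks favours. Whether composition has a part in the gap was not tested. Windows with under 50% G+C made up 23.6% of those on the 3 chromosomes (27.1% on chromosome 4), against 17.5% elsewhere, and 1 of 260 had a lipid-overload peak (0.385%) and none a mock peak. Between 60 and 70% G+C, 37.6% of windows had a lipid-overload peak on the 3 chromosomes (32.4 to 43.0), against 48.2% on the others (46.8 to 49.6). At 70% or more the shares were 36.0% (30.4 to 41.8) against 48.6% (47.0 to 50.3). In the mock list they were 8.28% (5.58 to 11.8) against 14.7% (13.7 to 15.7), and 7.96% (5.11 to 11.7) against 12.1% (11.03 to 13.2). Between 60 and 70% G+C, chromosomes 4, 13 and 18 had 32.2% (25.4 to 39.6), 44.2% (33.5 to 55.3) and 42.7% (31.3 to 54.6) after lipid overload. At 70% or more they had 35.0% (27.6 to 43.0), 31.9% (21.4 to 44.0) and 43.3% (30.6 to 56.8). Their mock shares were 7.34%, 13.95% and 4.0% between 60 and 70%, and 5.73%, 8.33% and 13.3% at 70% or more.

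**Figure D5:**
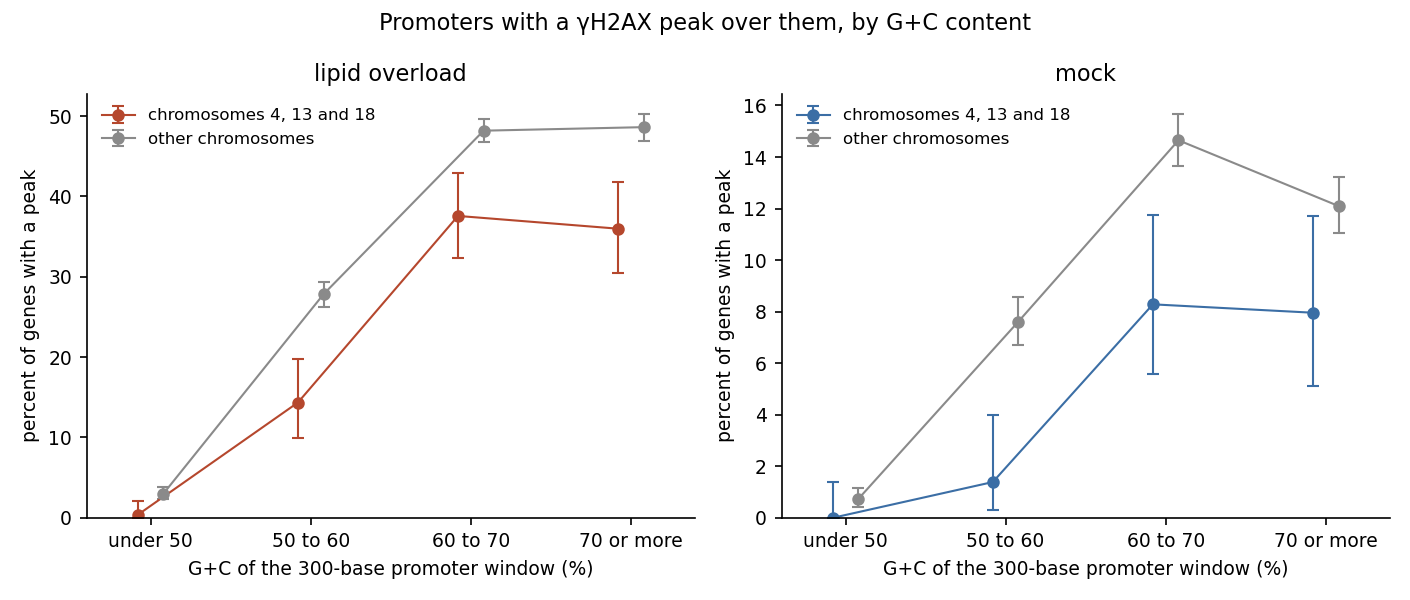
Points give the percent of 300-base promoter windows with a γH2AX peak over them, by the G+C content of the window, for chromosomes 4, 13 and 18 and for the other chromosomes, in the lipid-overload list (left) and the mock list (right); whiskers are exact 95% binomial intervals and the vertical scales differ. Windows under 50% G+C are almost never marked, and at 60 to 70% the 3 chromosomes together reach 37.6% and 8.28%, below the 48.2% and 14.7% of the others. By chromosome, the lipid-overload shares there are 32.2% (4), 44.2% (13) and 42.7% (18).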

How the data were processed

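The 2 γH2AX CUT&Tag libraries of HepG2 cells, 1 per group, were compared through their deposited peak lists in hg38 coordinates. The submitters' processing notes name BWA, deepTools, FastQC and MACS2 2.1.2. Their settings, and any use of IgG as control, were not given in the sources used here. For each peak the authors deposited a score, a fold ratio over background, a −log10 p-value and a −log10 q-value, the last at least 1.3 in both lists. Whole fragments at the summit and the local background were recovered from the fold and the −log10 p-value, which fitted at 100% of peaks within 0.0001 on the log10 scale. On simulated peaks of the lipid-overload and mock lists 99.99% and 100% were recovered. The depth of the libraries themselves is unknown, and their ratio, 2.62, comes from the recovered background. The number at matched depth sums each lipid-overload peak's binomial probability of still passing the lowest mock −log10 p-value, 4.27. It adds no peak that a shallower library might call anew.

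Coding genes and promoters are RefSeq's (GRCh38.p14). A gene counted where its middle lay in the zone, and 679 genes out of order by over 1 Mb in the table, 153 of them coding, were set aside. A peak's place was the first it overlapped of gene end, coding gene and other gene, or else outside any gene; shares of positions are for an interval of the list's median peak width. Each gene has 1 promoter window, the outermost. Assembly gaps were not removed from lengths. The members, gene lists and measures were chosen with earlier results of these data known. The genes and peaks named rank highest by −log10 q and then fold in their class. Of them, 1 gene is not reported here. With 1 library per group no test was made. Exact Poisson, binomial and conditional binomial intervals (95%) cover counting error only. Alternatives were stricter thresholds, merged peaks, matched depth, other overlaps, wider gene ends, other zones and 1 Mb windows. Python 3.11.15, numpy 2.4.6, scipy 1.17.1, pandas 2.3.3 and matplotlib 3.10.9 were used.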

Additional observations from a re-analysis of the deposited data

How the results depend on the processing

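The 3 chromosomes had fewer peaks per Mb than the others under every alternative run, but which list had the smaller density ratio turned under both stricter thresholds. With −log10 q of at least 5, there were 377 lipid-overload and 39 mock peaks (0.297 and 0.0307 per coding gene; ratio 9.67), of which 51.5% and 46.2% lay at gene ends and 15.4% and 17.9% outside genes; 8.22% and 76.9% overlapped the other list, the density ratios to the other chromosomes were 0.285 and 0.237, and 18 genes were marked in both lists and 1 in the mock list only. With a fold of at least 5 there were 553 and 110 peaks (0.435 and 0.0866 per gene; ratio 5.03), 49.5% and 35.5% at gene ends and 15.7% and 17.3% outside genes; 61.8% of mock peaks overlapped, the density ratios were 0.304 and 0.27, and 43 genes were marked in both lists and 2 in the mock list only. At matched depth, 461 lipid-overload peaks (0.363 per gene; ratio 1.16) were expected, 44.5% at gene ends and 17.7% outside genes, with overlaps of 18.9% and 21.9%, 165 genes marked after lipid overload only and 37.1 in the mock list only.

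Merging peaks within 1 kb gave 0.733 lipid-overload peaks per gene. Requiring an overlap of 50% of each peak gave 6.53% and 16.4%, and allowing 1 kb gave 15.3% of lipid-overload peaks. Gene ends of 3 kb held 41.4% and 28.3%. Leaving out 2 Mb at the ends and 5 Mb at centromeres gave 2.65 lipid-overload peaks per Mb. Leaving out 10 Mb and 5 Mb, a choice made after seeing the data, left 618 and 251 peaks (2.11 and 0.859 per Mb, 0.618 and 0.251 per gene), density ratios of 0.248 and 0.323 and 45.1% of lipid-overload peaks at gene ends. The cause of these shifts was not tested. No paired analysis was possible because each group has 1 library. Mock peaks with few fragments limit every statement on the mock list: 308 of 396 had 5 or fewer.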
